A study of Mus musculus with 6 samples.

Results

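The acute phase plasma proteins are a set of 10 genes, Saa1, Saa2, Saa3, Apcs, Hp, Hpx, Cp, Orm1, Orm2 and Itih4, followed here in whole kidneys of mice that lack Vhl in part of the tubule cells. They were chosen by name, and all 10 had a row, each read through its Entrez ID, among the 25206 rows of the array, of which 23185 carried a gene symbol. Total RNA of whole kidneys from 3-month-old male C57BL/6 mice was hybridised to Mouse Gene 2.0 ST arrays, 3 arrays for wild-type and 3 for Vhl knockout. The deposited values are log2 signals after RMA, and each row was tested with limma, which shares the spread among rows. Differences below are knockout minus wild-type in log2 units, with their standard error (SE) or 95% interval, and the adjusted p is that of Benjamini and Hochberg over all rows. A gene passed, or was called, at an adjusted p under 0.05. The wild-type mice carried the floxed Vhl allele, also written Vhl loxP/loxP, with no Cre named, and the knockout mice carried the floxed allele with Hoxb7-Cre-GFP, so that the labels give the floxed allele to both groups and the transgene to the knockout only. For cultured tubule cells the study names wild-type donors that carried Hoxb7-Cre-GFP, and whether this held for the kidneys on the arrays is not stated. Unless the controls carried a Cre as well, effects of Vhl loss and of the transgene cannot be told apart. The Hoxb7 promoter drives Cre in a subset of the tubule cells, best known as the collecting duct, and the extract also held the cells that kept Vhl. The sources do not state that every array came from its own mouse, so that p-values measure the spread between these samples, which may be technical. Vhl itself read 6.11, 6.13 and 6.03 in wild-type and 6.08, 6.18 and 6.10 in knockout kidneys, but the exons that its row reads are not stated, so that it is no check of the labels.

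Acute phase proteins are plasma proteins whose output changes during inflammation, mostly from the liver under interleukin 6 and interleukin 1, through the transcription factors STAT3, C/EBP and NF-κB. Other tissues can make some of them: Cp, Hp and the orosomucoids have known expression outside the liver, and in mice Saa3 is known from macrophages and fat. VHL marks the HIF subunits for degradation, and ceruloplasmin is known as a HIF-1 target in human liver cells. The set holds an apolipoprotein family that travels on HDL (Saa1, Saa2, Saa3), a pentraxin (Apcs, serum amyloid P, the pentraxin that rises most in mice), scavengers of haemoglobin (Hp, haptoglobin) and of haem (Hpx, hemopexin), a copper-containing ferroxidase (Cp, ceruloplasmin), lipocalins that bind lipids and drugs (Orm1 and Orm2, the orosomucoids) and a heavy chain of the inter-alpha-trypsin inhibitor family (Itih4).

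Promoters are shown for the member that passed the test, Cp, and for Saa1 and Saa2, close relatives whose windows were nearly identical. RefSeq (GRCm38.p6) gave a start site window for 8 of the 10 genes, with 9 windows in all, and the 250 bases before the start site were used. Hp and Orm1 had no window, so no motif was searched for them. Capitals mark the C/EBP letters TTGCNNAA on either strand.
Cp, chr3:19956999-19957248, plus strand: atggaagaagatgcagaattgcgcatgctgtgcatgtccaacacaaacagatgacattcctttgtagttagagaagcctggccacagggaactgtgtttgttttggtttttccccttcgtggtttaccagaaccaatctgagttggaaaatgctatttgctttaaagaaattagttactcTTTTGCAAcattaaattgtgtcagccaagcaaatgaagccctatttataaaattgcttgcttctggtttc
Saa1, chr7:46742981-46743230, minus strand: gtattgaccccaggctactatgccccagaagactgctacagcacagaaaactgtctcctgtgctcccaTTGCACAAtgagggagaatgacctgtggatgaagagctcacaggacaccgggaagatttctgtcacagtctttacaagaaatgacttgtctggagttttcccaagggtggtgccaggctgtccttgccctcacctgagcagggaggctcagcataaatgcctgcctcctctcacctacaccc
Saa2, chr7:46751583-46751832, plus strand: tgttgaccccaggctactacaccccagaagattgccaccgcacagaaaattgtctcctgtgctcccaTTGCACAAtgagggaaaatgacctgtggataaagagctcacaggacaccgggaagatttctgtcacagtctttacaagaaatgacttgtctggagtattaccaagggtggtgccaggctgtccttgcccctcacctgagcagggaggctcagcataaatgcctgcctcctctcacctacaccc
Cp spans chr3:19956933-20009750, and its earlier start site window held none of the motifs searched. The Saa1 and Saa2 windows were identical at 238 bases, with 11 mismatches and 2 gap bases, an identity of 94.8%. In RefSeq the serum amyloid A genes lie close together at chr7:46711998-46719615 (Saa3), chr7:46740497-46743181 (Saa1) and chr7:46751833-46754313 (Saa2), and the orosomucoid genes at chr4:63344556-63348163 (Orm1) and chr4:63362449-63365877 (Orm2). Probes of such close relatives may share signal. The windows compared lie before a start site, so their identity does not measure this, and probe sequences were not compared. Of the other members, Hp lies at chr8:109575128-109579172, Hpx at chr7:105591611-105600116, Itih4 at chr14:30886476-30901986 and Apcs at chr1:172893961-172895054, all of them protein coding. Of the relatives outside the set, Orm3 lies between Orm1 and Orm2 at chr4:63356069-63359506. Saa4 lies between Saa3 and Saa1 at chr7:46727992-46732603. Where the other relatives lie was not looked up. TTGCNNAA was found before the starts of Saa1, Saa2, Saa3, Hpx, Orm2 and the later Cp start, against 9.56% of all 32851 windows. The STAT letters TTCNNNGAA were found before Itih4 and Apcs, against 7.02% of all windows, and GGG and CC with 5 bases of any kind between them, a loose form of the NF-κB letters, before Saa1, Saa2, Itih4 and the later Cp start, against 45.8%. The HIF core ACGTG or GCGTG, present in 38.6% of all windows, was not among these letters in any window of the set. All motifs were searched on both strands, and matches to different motifs did not overlap each other. A match describes letters and not a bound site.

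Ceruloplasmin rose in the Vhl knockout kidneys, and it was the only member that passed the test. Its log2 signal was 8.38, 8.13 and 8.10 in wild-type and 9.46, 9.35 and 9.04 in knockout kidneys. The groups did not overlap, and 0.66 separated the lowest knockout value from the highest in wild-type. The means were 8.20 ± 0.16 and 9.28 ± 0.22 (SD, n = 3 each), and the difference was 1.08 (SE 0.13, limma adjusted p = 0.00925). This corresponds to 2.11-fold (95% interval 1.71 to 2.62). Of the 10 members 1 was called higher and 0 lower, while 2.24% of all 25206 rows were called higher and 0.524% lower. A single call among 10 rows does not set the set apart from the array as a whole. At an unadjusted p under 0.05 from limma, 2 members were higher, Cp and Hp, and 0 lower. Of all 25206 rows, 2185 were higher and 2112 lower at that level, and whether the members differ from this was not tested. Cp passed whichever single array was left out, at a difference between 0.99 and 1.20 and an adjusted p between 0.0151 and 0.0439. It did not pass once the mean of the adipocyte markers entered the fit as a covariate, where the difference was 1.05 (adjusted p = 0.0808), nor with knockout replicate 2 alone against the wild-type arrays, at 1.15 (adjusted p = 0.107), a comparison added after seeing the data. Cp was also the only member above the array median on all 6 arrays.

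**Figure D1:**
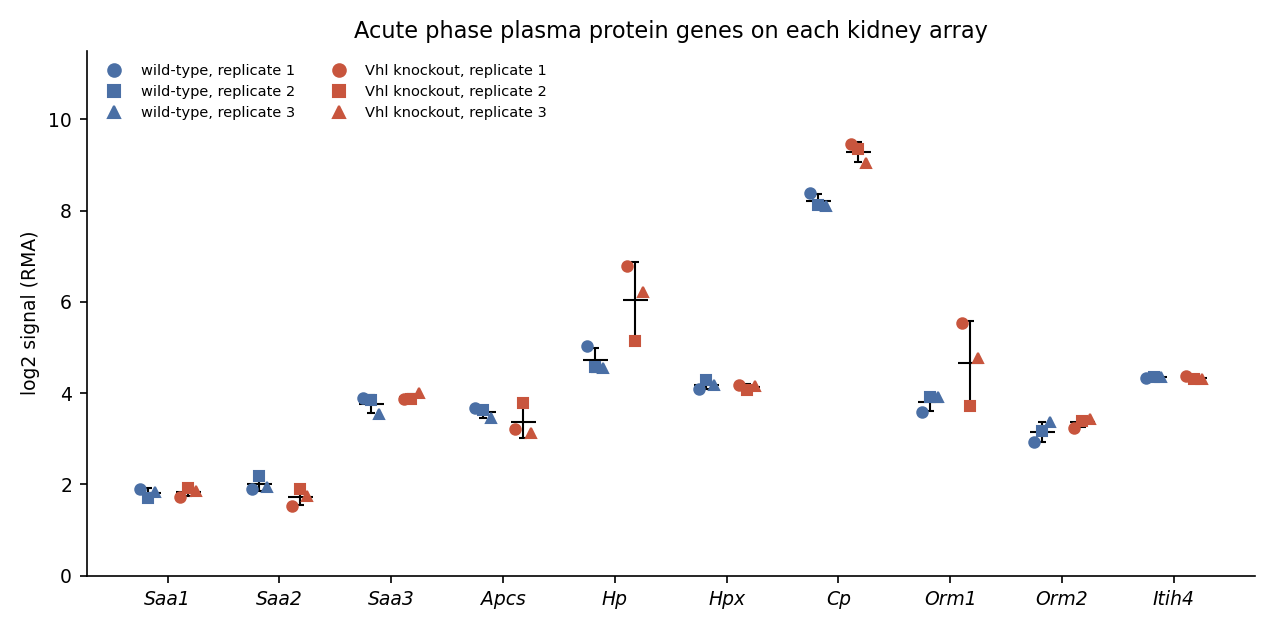
Log2 signal (vertical axis) of the 10 genes on each array, with wild-type in blue and Vhl knockout in red, a symbol shape for each replicate number, and the group mean with SD as bars. Cp sits from 9.04 to 9.46 on the knockout arrays and from 8.10 to 8.38 on the wild-type arrays, while Hp and Orm1 spread widely among the knockout arrays.

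The haemoglobin scavenger Hp had the largest difference of the members, but it did not pass the test. Its log2 signal was 5.04, 4.58 and 4.56 in wild-type and 6.78, 5.14 and 6.22 in knockout kidneys. Replicates 1 and 3 of the knockout were high, and replicate 2 exceeded the highest wild-type value by 0.11. The means were 4.73 ± 0.27 and 6.05 ± 0.83 (SD, n = 3 each), and the difference was 1.32 (SE 0.38, limma adjusted p = 0.137). In fold units its 95% interval ran from 1.35 to 4.64. Cp and Hp were the 2 members whose groups did not overlap with the knockout higher, which held for 11.2% of all rows, and no member was without overlap in the other direction, which held for 12.7%. With 10 members, these counts are close to the background. Without knockout replicate 2, Hp passed at 1.77 (limma adjusted p = 0.0219), and without any other array it did not.

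Orm1 followed the same arrays as Hp and its groups overlapped. Its log2 signal was 3.58, 3.92 and 3.92 in wild-type and 5.53, 3.71 and 4.76 in knockout kidneys, so that knockout replicate 2 lay among the wild-type values. The difference was 0.86 (SE 0.40, limma adjusted p = 0.337), or 1.34 without that array (adjusted p = 0.0544), and knockout replicate 2 lay 0.10 below the wild-type mean. Orm2, another orosomucoid gene of the same cluster, read 2.93, 3.17 and 3.37 in wild-type and 3.24, 3.39 and 3.44 in knockout kidneys. Its groups overlapped, and the difference was 0.20 (adjusted p = 0.455). The third orosomucoid gene, Orm3, is not a member. It differed by -0.20 (adjusted p = 0.231), with the knockout arrays all below the wild-type arrays by a gap of 0.075. Such a lack of overlap held for 12.7% of all rows. Orm3 also lay under the lower quartile on all 6 arrays, so that a change of it may not have been detectable.

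Adipocyte genes were high on the same knockout arrays. Of 12 adipocyte markers 10 had a row, and none read 0. In limma 0 of them were called, and 3 were higher at an unadjusted p under 0.05. Adipoq, the hormone adiponectin that defines fat cells, read 6.34, 2.95 and 5.23 in knockout and 3.58, 3.08 and 2.39 in wild-type kidneys. Their mean log2 signal was 7.32 and 6.65 on the arrays of knockout replicates 1 and 3, 5.35 on that of replicate 2, and between 5.30 and 5.66 in wild-type kidneys. The summed linear signal of these genes ran from 971 to 1190 in wild-type and was 3511, 775 and 2059 on knockout replicates 1, 2 and 3. With their mean signal as a covariate, the difference was 0.53 for Hp (limma adjusted p = 0.198) and 0.06 for Orm1 (adjusted p = 0.957). For Cp it was 1.05 (adjusted p = 0.0808). The part of fat cells in these differences was not tested. Cp lay 1.26, 1.15 and 0.84 above its wild-type mean on knockout replicates 1, 2 and 3, against 2.06, 0.42 and 1.49 for Hp. Hp is also a granule protein of neutrophils. The 12 neutrophil markers averaged between 3.41 and 3.54 in knockout and between 3.53 and 3.67 in wild-type kidneys, with 0 called in limma and 1 lower at an unadjusted p under 0.05. These means lay near the lower quartile of the arrays, 3.49 to 3.59, so that a change of these markers may not have been detectable. The 12 hepatocyte markers, which would follow liver tissue in the extract, averaged 5.11 to 5.23 and 5.12 to 5.41, again with 0 called in limma and 2 lower at an unadjusted p under 0.05. Macrophage markers moved with Cp: 8 of 11 with a row were called higher, and their mean was 7.20 to 7.30 in knockout and 6.06 to 6.28 in wild-type kidneys. The part of macrophages in the Cp result was not tested. In whole-kidney extracts, fewer cells of a type and less RNA per cell cannot be told apart.

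**Figure D2:**
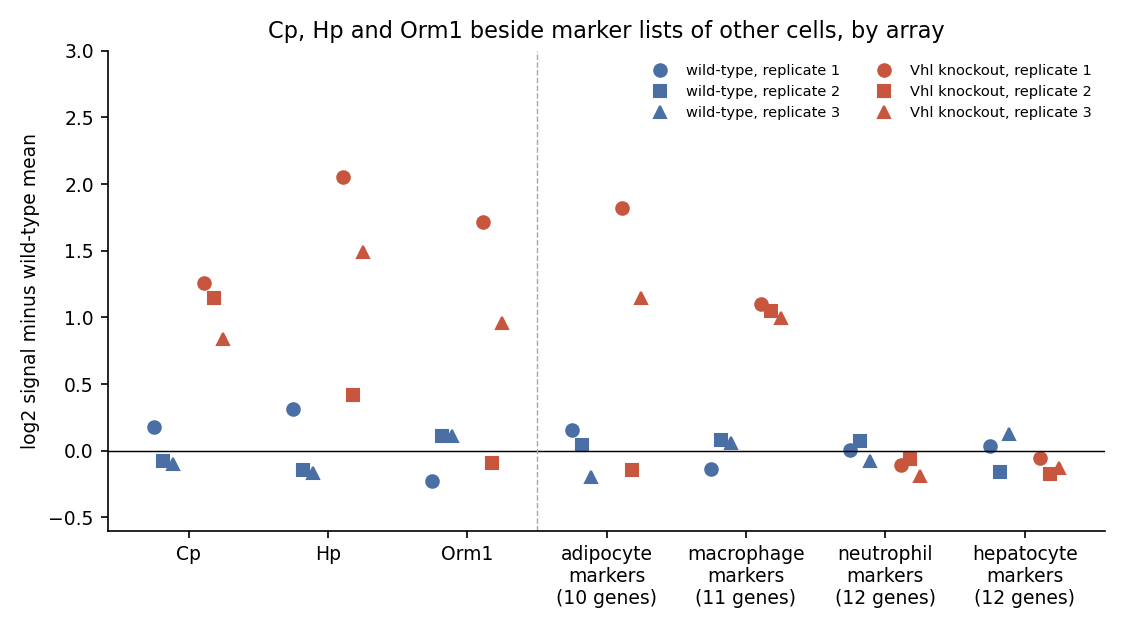
Log2 signal minus the wild-type mean (vertical axis) on each array for Cp, Hp and Orm1, left of the dashed line, and for the mean of 4 marker lists, right of it. Hp, Orm1 and the adipocyte markers are high on knockout replicates 1 and 3, while Cp and the macrophage markers are high on all 3 knockout arrays.

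The serum amyloid A genes did not pass the test in either direction. Saa1 read 1.90, 1.69 and 1.83 in wild-type and 1.73, 1.91 and 1.85 in knockout kidneys, a difference of 0.02 (95% interval -0.18 to 0.23, limma adjusted p = 0.922). Saa2 read 1.91, 2.18 and 1.94 in wild-type and 1.53, 1.91 and 1.75 in knockout kidneys, a difference of -0.28 (95% interval -0.57 to 0.01, adjusted p = 0.302). Both lay under the lower quartile of all rows on all 6 arrays, as did Orm2, so that a change of these genes may not have been detectable. Saa3, the form known in mice from tissues other than the liver as well, read 3.88, 3.85 and 3.54 in wild-type and 3.86, 3.86 and 3.99 in knockout kidneys. Its groups overlapped, and the difference was 0.15 (95% interval -0.11 to 0.41, adjusted p = 0.544), whereas markers of macrophages, which can make it, were higher in knockout kidneys on all 3 arrays.

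The remaining members also overlapped between the genotypes. Hpx, the haem scavenger, read 4.08, 4.28 and 4.18 in wild-type and 4.18, 4.06 and 4.15 in knockout kidneys, a difference of -0.05 (95% interval -0.24 to 0.14, limma adjusted p = 0.805). Itih4 was the member with the least spread. It read 4.33, 4.35 and 4.36 against 4.37, 4.31 and 4.32, a difference of -0.01 (95% interval -0.17 to 0.15, adjusted p = 0.955). The pentraxin Apcs read 3.66, 3.62 and 3.44 against 3.21, 3.78 and 3.14. On knockout replicates 1 and 3 it was below all wild-type arrays and on replicate 2 above them, and the difference was -0.20 (95% interval -0.61 to 0.20, adjusted p = 0.605). Of the 10 members, 7 lay under the array median on all 6 arrays, namely Saa1, Saa2, Saa3, Hpx, Orm2, Itih4 and Apcs. Probes of different genes bind with different strength, so this marks dim rows and does not rank the genes. Hp lay under the array median on 2 arrays and Orm1 on 5.

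**Figure D3:**
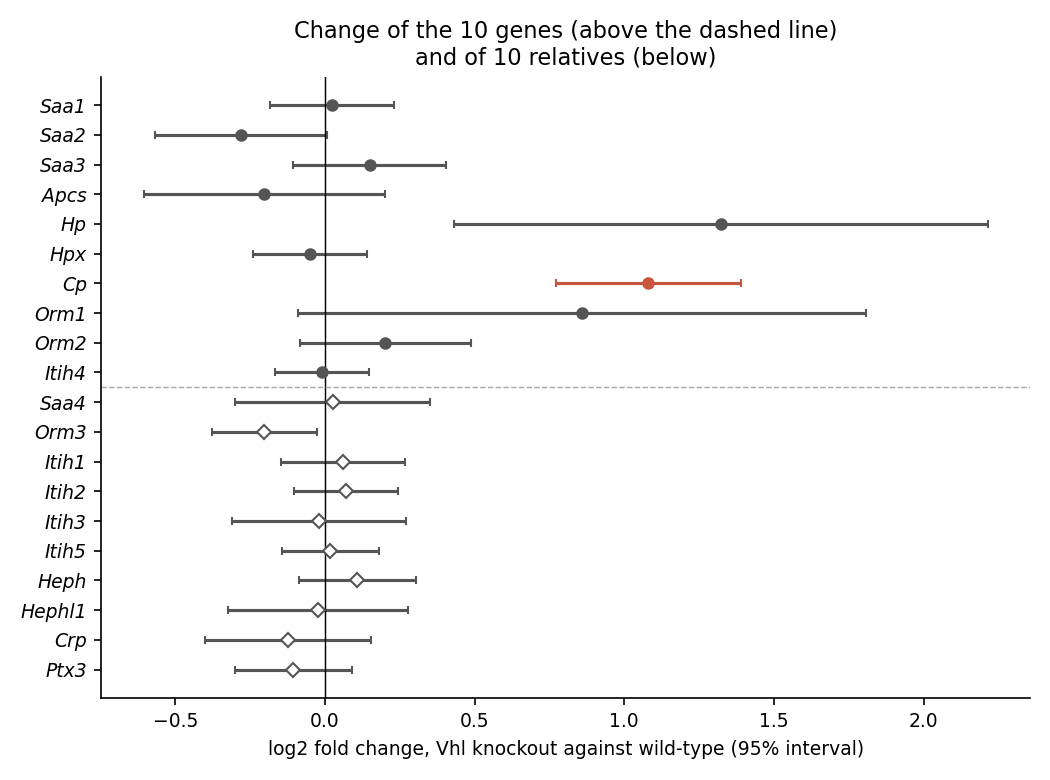
Log2 fold change of Vhl knockout against wild-type with its 95% interval (horizontal axis) for the 10 genes, filled circles above the dashed line, and for 10 relatives, open diamonds below it. Cp, in red, is the gene with an adjusted p under 0.05, at 1.08, and the intervals of Hp and Orm1 are the widest.

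Relatives of the members gave 0 calls in 10 genes in limma, and their median difference was -0.00067 against -0.03 over all rows. At an unadjusted p under 0.05 from limma, Orm3 was the only 1 of them. Heph, the membrane-bound ferroxidase related to Cp, had 0.11 (adjusted p = 0.567), and Crp, the other short pentraxin, -0.12 (adjusted p = 0.651). Over the members themselves the median was 0.09, with 6 positive and 4 negative differences.

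Other proteins of the positive acute phase included larger differences than any member. Of 21 with a row, 8 were higher, 0 were lower and 13 did not pass, and the median difference was 0.79. The difference between the lists was not tested. The largest were the siderophore-binding Lcn2 with 3.79, the fibrinogen chain Fgg with 2.82, the protease inhibitor Serpina3n with 2.78 and the fibrinogen chain Fgb with 2.70 (limma adjusted p = 0.000234, 0.00120, 0.00269 and 0.0253). The others called were Serping1, the C1 inhibitor of complement, with 1.37, C4b of complement with 1.24, Lbp, which binds bacterial lipopolysaccharide, with 1.10, and Lrg1 with 0.79. Unlike Hp, Lrg1 lay close together on the knockout arrays, at 5.31, 5.33 and 5.23 against 4.46, 4.58 and 4.45 in wild-type kidneys. Lcn2, Fgg, Serpina3n, Serping1, C4b and Lrg1 passed whichever array was left out, while Fgb and Lbp each failed when any 1 of 4 arrays was left out, at an adjusted p as high as 0.0916 and 0.0952. With knockout replicate 2 alone, Lcn2, Fgg and Fgb passed and the other 5 did not. With the adipocyte covariate Fgb, C4b and Lbp did not pass (adjusted p = 0.169, 0.0545 and 0.157), at differences of 2.23, 1.31 and 1.07.

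Transferrin, which carries the iron that ceruloplasmin oxidises and falls in the acute phase in many settings, rose with Cp. Trf read 6.43, 6.65 and 6.43 in wild-type and 8.35, 7.57 and 7.90 in knockout kidneys. The groups did not overlap, and the difference was 1.44 (SE 0.19, limma adjusted p = 0.0119). Without wild-type replicate 1 or 3 its adjusted p was 0.0580 and 0.0526, and with knockout replicate 2 alone the difference was 1.07. With the adipocyte covariate the difference was 1.09 (limma adjusted p = 0.0380). Among the knockout arrays Trf, like Hp, was highest on replicate 1 and lowest on replicate 2, whereas Cp was lowest on replicate 3. Trf was the only 1 of 13 negative acute phase genes called, and 0 were lower. The list's median was 0.12, and Apoh, a plasma protein that binds phospholipids, had the most negative difference, -0.86 (adjusted p = 0.0927). Slc40a1, the iron exporter ferroportin that works with Cp, differed by 0.58 (adjusted p = 0.0523), and Hmox1, which breaks down haem, 0.59 (adjusted p = 0.0556). Both passed under a trended, robust fit of the spread (adjusted p = 0.0166 and 0.0174), when dim rows were left out and with a pseudocount of 16, and neither passed when any array was left out.

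Some receptors that bind the members were called higher and others were not. Of 21 receptors and genes of haem and iron handling with a row, 6 were higher, 0 were lower and 15 did not pass, and the median difference was 0.09. Of the list, 13 differences were positive and 8 negative. Among those that did not pass, Fcgr2b differed by -0.05 and Tlr4 by 0.64 (limma adjusted p = 0.799 and 0.0839). Cd163, the macrophage receptor for haptoglobin bound to haemoglobin, read 4.05, 4.01 and 3.97 in wild-type and 5.01, 4.42 and 4.78 in knockout kidneys. The difference was 0.73 (limma adjusted p = 0.0499). It passed without knockout replicate 2 but not without any other array, at an adjusted p as high as 0.145. Lrp1, which takes up hemopexin bound to haem, had 0.58 (adjusted p = 0.0129, up to 0.0605 without 1 array). The Fc receptors Fcgr3 and Fcgr1, which bind serum amyloid P as well as antibodies, had 1.34 and 0.95, and Tlr2 and Scarb1, which bind serum amyloid A, 0.57 each. Each of them failed when certain arrays were left out, at an adjusted p as high as 0.0731 for Fcgr3, 0.0681 for Fcgr1, 0.0588 for Tlr2 and 0.114 for Scarb1. With the adipocyte covariate none of the 6 passed, while the differences were 0.97 for Fcgr1, 0.62 for Tlr2, 0.53 for Scarb1 and 0.50 for Lrp1, and 0.997 for Fcgr3 and 0.45 for Cd163. Cd163, Fcgr1 and Fcgr3 are also genes of macrophages, whose markers were higher on the same arrays.

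Several receptors and regulators upstream of acute phase genes were higher, while interleukin 6 itself was dim and overlapped between the genotypes. Il6 read 1.76, 1.70 and 1.53 in wild-type and 1.81, 1.94 and 1.61 in knockout kidneys, under the lower quartile on every array (difference 0.12, limma adjusted p = 0.628). A change of Il6 may thus not have been detectable. Of 25 cytokine and signalling genes with a row, 6 were higher, 0 were lower and 19 did not pass, with a median of 0.18. Among the cytokines that did not pass, Il1b differed by 0.60, Lif by 0.41 and Il11 by -0.24 (limma adjusted p = 0.0815, 0.131 and 0.283). For each of them the groups did not overlap, and each lay under the array median on all 6 arrays. Osmr, the oncostatin M receptor, led with 1.48 (adjusted p = 0.000667), at 8.11, 8.05 and 8.10 on the knockout arrays against 6.67, 6.54 and 6.61. The interleukin receptors Il1r1 and Il6ra had 0.69 and 0.68, the feedback inhibitor Socs3 0.61, the transcription factor Stat3 0.56 and the NF-κB cofactor Nfkbiz 0.52. Osmr and Socs3 passed whichever array was left out, and of the 6 only Osmr passed with the adipocyte covariate (adjusted p = 0.0231). The differences under that covariate were 1.44 for Osmr, 0.61 for Socs3, 0.63 for Il1r1, 0.54 for Il6ra, 0.46 for Stat3 and 0.53 for Nfkbiz. With the replicate block Osmr passed and Socs3 did not (limma adjusted p = 0.0160 and 0.0527). With knockout replicate 2 alone their differences were 1.44 and 0.59. Il1r1, Il6ra, Stat3 and Nfkbiz failed without 1 or more of the arrays, at an adjusted p as high as 0.0605, 0.0750, 0.113 and 0.0612, and Stat3 failed without each of the 6.

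**Figure D4:**
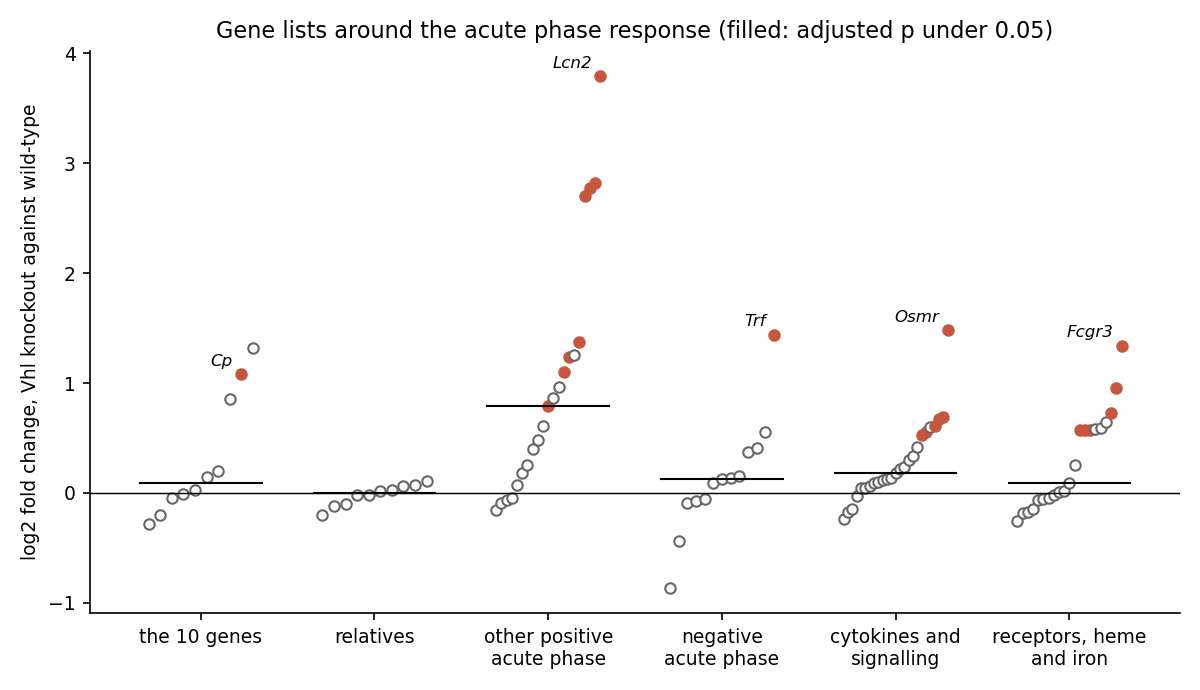
Log2 fold change of Vhl knockout against wild-type (vertical axis) for each gene of 6 lists, ordered within a list, with the list's median as a line and genes past an adjusted p of 0.05 filled. Of the 10 genes Cp is filled, while 8 of 21 other positive acute phase genes are filled, up to 3.79 for Lcn2.

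The genes whose pattern over the 6 arrays was most like that of Cp were the uroplakin Upk3b (Pearson r = 0.992), Ifi27 (r = 0.992) and the tetraspanin Cd81 (r = 0.991), with differences of 0.58, 0.39 and 0.23. For Orm1, the member with the largest SD over the knockout arrays, they were the sorting receptor Sort1 (r = 0.992), Cpsf4 of the mRNA cleavage complex (r = 0.989) and the fat cell hormone Retn (r = 0.989), with 0.20, 0.21 and 2.36. Retn read 8.89, 4.76 and 7.13 on the knockout arrays. These correlations describe 6 arrays that share their genotype groups.

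Other facts of the series bear on these values in few places. Medians of the 6 arrays lay within 0.0356 of each other. Proximal tubule genes had all 9 rows among the brighter ones, with a mean of 10.9 to 11.1 on every array. None of them was called or had an unadjusted p under 0.05 in limma, and the differences ran from -0.30 for Slc7a13 to 0.11, with -0.20 for Slc22a6. Of 10 collecting duct genes, Fxyd4 and Aqp3 were lower (-0.78 and -0.70) and 8 did not pass. Aqp3 passed whichever array was left out, and Fxyd4 had an adjusted p of 0.0172 to 0.0646. Of 8 endothelial genes, 1 was higher, Tie1 with 0.49, next to Cdh5 with 0.49 (adjusted p = 0.108), and without 1 array the adjusted p of Tie1 rose to 0.104. The macrophage genes Mrc1, Ctss, C1qb and C1qc had 1.70, 1.51, 1.48 and 1.39. Podocyte, red blood cell, hepatocyte, neutrophil and adipocyte lists had 0 calls each in limma, with 1 podocyte and 1 red blood cell gene higher at an unadjusted p under 0.05. Among them the largest differences in size were 0.24 and 0.10 for Synpo and Podxl, and 0.43 and 0.24 for Hbb-bs and Alas2. They were -0.44 and -0.39 for Alb and C8a, -0.30 each for Mpo and Ngp, and 2.36 and 1.83 for Retn and Cidec. Hbb-bs, the red blood cell gene at an unadjusted p under 0.05 in limma, lay under the lower quartile on all 6 arrays. Of 6 red blood cell genes listed, 3 had a row.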

How the data were processed

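The authors deposited log2 signals of 6 Affymetrix Mouse Gene 2.0 ST arrays made with RMA, which corrects background, normalizes between arrays and summarises probes, with 1 value per Entrez Gene row. For the software, its version, the probe mapping and the genome build: not given in the sources used here. Log2 values agreed between both tables for all 25206 rows, and the authors' own comparison (a statistic, p-value and q-value) was not used. Symbols came from the platform annotation, updated by Entrez ID through RefSeq (GRCm38.p6). Of all rows 23185 had a symbol and 2021 had none here.

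A model with genotype as its term was fitted to each row in R 4.3.3 by lmFit and eBayes of limma 3.58.1. Benjamini-Hochberg adjustment covered every row, and 0.05 was the threshold. A gene was called where it passed. The fit was tested on simulated data. Lists were described by counts and medians, and the marker lists covered adipocytes, hepatocytes, neutrophils, macrophages, endothelium, proximal tubule, collecting duct, podocytes and red blood cells. The members and lists were chosen with earlier results of these data known. The rule for named genes took all members and, from each other list, up to 4 called genes with the largest change, and where fewer than 2 were called the 2 that differed most. The other called genes of the acute phase, signalling and receptor lists were named after their values were seen. So were Slc40a1, Hmox1, Heph, Il6, Il1b, Lif, Il11, Fcgr2b and Tlr4. The rule also took the 3 genes with a symbol most correlated with each of 2 members. Depth has no meaning for arrays, whose number limits the precision. Alternatives were quantile normalization, leaving out dim rows, trend and robust eBayes (a spread that follows the signal, with outlying rows down-weighted), array weights, a block for the replicate number, leaving out each array, an adipocyte covariate, a pseudocount on the linear signal and other thresholds. The comparison of knockout replicate 2 alone was added after seeing the data. Figures and sequence tables were made with Python 3.11.15.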

Additional observations from a re-analysis of the deposited data

How the results depend on the processing

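Of the members' 132 values under an alternative, 122 kept their direction and side of the threshold. Of 650 values of the other named genes, 514 did so, 113 lost the call, 11 gained it and 12 turned. The count of members higher was 1, and 0 with the adipocyte mean as a covariate and with knockout replicate 2 alone against wild-type, the latter added after seeing the data, and 1 to 2 with each array left out. The count lower was 0 throughout. The cause of the lost calls was not tested, though the second leaves 1 knockout array, whose spread is assumed to be that of the wild-type arrays. Over all rows, 565 higher and 132 lower became 141 and 13 with the covariate, 8 and 0 with knockout replicate 2 alone, 246 and 24 with a replicate block, 176 and 7 at a threshold of 0.01, and 947 and 393 at 0.1. The lower count was 224 with the pseudocount, 262 when only rows above the median of 3 or more arrays were kept and 268 with trend and robust eBayes, and the higher counts there were 737, 839 and 826. Each array left out gave 223 to 361 higher and 21 to 52 lower. At an unadjusted p under 0.05, 2185 rows were higher and 2112 lower.

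Some differences turned in direction. Leaving out 1 array gave -0.033 to 0.073 for Saa1, -0.030 to 0.0011 for Itih4 and -0.14 to 0.45 for Alas2. Quantile normalization turned Itih4 to 0.018. The covariate turned Apcs to 0.068, Crp to 0.034, Cidec to -0.073, Slc22a6 to 0.050, Podxl to -0.012 and Alas2 to -0.22. Knockout replicate 2 alone turned Orm1 to -0.10, Apcs to 0.20, Crp to 0.050, Cidec to -0.40, Slc22a6 to 0.019, Podxl to -0.012, Alas2 to -0.16 and Heph to -0.019. The median filter left no value for members dim on most arrays.

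The labels give both genotypes the replicate numbers 1 to 3 but name no litter, batch or day. Same-numbered arrays deviated from their group means with correlations of 0.04, 0.07 and -0.10, and arrays of different numbers with -0.10 to 0.07. Not every array correlated best with its own number. With 3 arrays per group, such values cannot tell whether a number marks a shared litter, batch or day. With the replicate block Cp had an adjusted p of 0.0248 and Hp 0.0892, and the block changed the call of no member.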
